A study of Mus musculus with 9 samples.

Results

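The secreted side of the Wnt pathway was followed in 10 genes: the ligands Wnt7a, Wnt7b, Wnt4 and Wnt5a, the secreted antagonists Sfrp1, Sfrp2, Frzb and Dkk2, and the downstream genes Ccn4 and Axin2. They were taken as every probe set whose only gene symbol in the platform annotation is one of these names, which gave 24 of the 45037 probe sets analysed, and these genes are 10 of 18193 with such a probe set. Of the 24, 19 passed the filter on low signal (a geometric mean of 116 or more over all arrays), and Sfrp2 and Dkk2 have no probe set that did.

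The cells were cultured lung cells, labelled type II, of ICR10 mice that the labels call female and 2 months old, and each of the 3 groups had 3 arrays. The groups were Nrf2-/- cells supplemented with GSH, Nrf2-/- cells without it, and wild-type (Nrf2+/+) cells. GSH is the usual abbreviation of the antioxidant glutathione, and the labels state neither its dose nor its time. All cells had been digested out with Dispase II, depleted of macrophages on IgG plates and of fibroblasts by adherence, and kept on a fibronectin-collagen coat for 5 days, all with keratinocyte growth factor. Nrf2, encoded by Nfe2l2, is the transcription factor that switches on antioxidant genes. The labels describe neither how the Nrf2-/- allele was made nor which animal or culture each array is from, so p-values measure only the spread between arrays, which may be technical.

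Wnt proteins are lipid-bearing secreted signals that bind Frizzled receptors together with the co-receptors Lrp5 and Lrp6. In the canonical branch this protects beta-catenin from destruction, and beta-catenin then acts with TCF/LEF proteins on target genes such as Axin2. Secreted frizzled-related proteins carry a Frizzled-like domain and can bind Wnts outside the cell, while Dickkopf proteins bind the Lrp co-receptors. In lung, Wnt7b is known as an epithelial ligand and Wnt5a as a largely mesenchymal one that can act without beta-catenin.

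The labels were checked first. Nfe2l2 had signals of 33.3 to 46.2 in Nrf2-/- cells with GSH, 28.7 to 77.4 in Nrf2-/- cells and 3878.6 to 4172.8 in wild-type cells. Against the label of female animals, the wild-type arrays carried the Y-linked genes Eif2s3y, at 801 ± 121 (1.9 to 16.2 with GSH and 1.5 to 24.4 without it in Nrf2-/- cells), Kdm5d and Uty, and Xist at 157 ± 28.2, against 3510 ± 1112 with GSH and 3203 ± 1248 without it in Nrf2-/- cells (SD, n = 3). Genotype and this difference cannot be told apart in either comparison with wild type. A number in the sample titles places 2 arrays of each group in a set called set 2 here and 1 in a set 3, and the labels do not explain the number. The type II marker gene Sftpc averaged 108 ± 30.3, 89.1 ± 48.7 and 37.3 ± 10.3 with GSH, without GSH and in wild type (SD, n = 3), and on no wild-type array did it exceed the control level, the 95th percentile of 27 unspiked bacterial control probe sets (43.5 to 82.9 by array). This held for only 1 of 10 type II markers. In the same order Sftpd averaged 349 ± 37.1, 218 ± 56.1 and 448 ± 52.2, and Lpcat1, the brightest, 2777 ± 431, 2020 ± 251 and 2175 ± 358. Macrophage and mesenchymal genes had signal in all groups, with the macrophage gene Adgre1 at 13737 ± 181, 10155 ± 899 and 4276 ± 606 and the collagen gene Col1a2 at 7350 ± 616, 23870 ± 4167 and 17362 ± 349.8 in the same order.

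The 10 genes were chosen with their values on these arrays known. Their levels and differences are therefore given as a description with the standard error of the fit, with no p-value, and tests are given only for other genes of the pathway and for cell type markers. Values are array signals in arbitrary units, which compare groups for 1 probe set and not 1 probe set with another, and differences are log2 coefficients of a model with terms for group and set.

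Upstream sequence is shown for 3 of the genes because they represent opposite patterns with GSH: Wnt7a was higher with it and Wnt4 and Frzb lower. The 250 bases before the annotated start, from RefSeq (GRCm38.p6), are printed 5′ to 3′ on the gene's strand, with capitals marking GGGCGG, the GC box of SP-family factors, on either strand.
Wnt7a (chr6:91411354-91411603, minus strand): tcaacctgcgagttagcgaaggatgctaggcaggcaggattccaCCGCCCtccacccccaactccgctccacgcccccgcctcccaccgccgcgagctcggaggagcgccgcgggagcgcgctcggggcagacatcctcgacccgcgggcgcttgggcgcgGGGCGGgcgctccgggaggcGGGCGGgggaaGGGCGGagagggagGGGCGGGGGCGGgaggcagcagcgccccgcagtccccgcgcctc
Wnt4 (chr4:137277385-137277634, plus strand): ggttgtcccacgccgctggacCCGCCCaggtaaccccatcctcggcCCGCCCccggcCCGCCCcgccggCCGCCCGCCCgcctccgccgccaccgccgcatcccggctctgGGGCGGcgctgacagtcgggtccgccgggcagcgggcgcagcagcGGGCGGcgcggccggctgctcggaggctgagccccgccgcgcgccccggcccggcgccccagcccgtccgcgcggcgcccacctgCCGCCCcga
Frzb (chr2:80447397-80447646, minus strand): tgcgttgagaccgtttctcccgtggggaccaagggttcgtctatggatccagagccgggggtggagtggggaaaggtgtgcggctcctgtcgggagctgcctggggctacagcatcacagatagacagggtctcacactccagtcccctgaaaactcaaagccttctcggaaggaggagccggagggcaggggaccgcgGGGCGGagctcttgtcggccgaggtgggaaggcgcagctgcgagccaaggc
Sequence was found for 6 of the 10 genes: these 3, Sfrp2, Dkk2 and Axin2. The starts used for Sfrp2 and Axin2 lie 571 and 2521 bases from the start of the annotated gene. Their windows are inside the gene, so the bases before the annotated start of Axin2 and Sfrp2 were not searched. The GC box, with overlapping matches counted, occurred 6 times before Wnt7a, 8 times before Wnt4 and 1 time before Frzb, in 5 of the 6 windows in all, and 32.7% of 32841 windows of that length hold it. The GC content was 77.6%, 85.2% and 64.4% in these 3 windows, where the median over all windows was 52.4%. The TCF/LEF words, CTTTG and then 2 bases that are each A or T, matched in 0 of the 6 windows (14.8% of all windows hold one), and so did TGACNNNGC, the core of the antioxidant response element bound by Nrf2 (10.2%). Both were searched on both strands, and a missing match says only that these letters are not in these windows.

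Wnt7a and Wnt7b, closely related ligands, were lowest in Nrf2-/- cells and highest in Nrf2-/- cells with GSH. The probe set 1423367_at of Wnt7a read 1211.9, 1312.6 and 1047.3 with GSH, 69.5, 107.8 and 75.8 in Nrf2-/- cells and 700.3, 688.9 and 445.9 in wild-type cells. No value of any group overlapped with another group's. Nrf2-/- cells stood 7.24-fold below wild type (log2 difference -2.86 ± 0.17, SE), at -3.004 in set 2 and -2.56 in set 3. GSH-supplemented Nrf2-/- cells stood 14.3-fold above Nrf2-/- cells (3.84 ± 0.17) and 1.98-fold above wild type (0.98 ± 0.17). The gene's other probe sets did not show this. Probe set 1447647_at averaged 213 ± 64.9 with GSH, 185 ± 38.4 in Nrf2-/- cells and 192 ± 44.9 in wild-type cells, all overlapping (SD, n = 3), and 1458334_at lay below the control level on every array.

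Both probe sets of Wnt7b had the same order of group means as the bright Wnt7a probe set. Probe set 1420892_at read 1698.3, 1641.3 and 1233.7 with GSH, 751.6, 663.4 and 524.6 in Nrf2-/- cells and 1223.3, 1064.4 and 726.8 in wild-type cells. The GSH arrays lay above all other arrays, while the highest Nrf2-/- array passed the lowest wild-type array, which is of set 3. Wnt7b was 2.36-fold higher with GSH than without it (1.24 ± 0.09) and 1.54-fold lower in Nrf2-/- than in wild-type cells (-0.62 ± 0.09), at -0.69 in set 2 and -0.47 in set 3. By 1420891_at the Nrf2-/- mean of 103 ± 26.7 stood against 285 ± 111 in wild type, without overlap (-1.40 ± 0.23), and the GSH mean of 344 ± 96.6 overlapped with wild type (0.32 ± 0.23). Type I markers and the airway gene Scgb1a1, which are epithelial, moved beside these ligands with GSH against without it, and in Nrf2-/- against wild type. Type II markers did so with GSH against without it. With GSH against without it, 5 of 9 measured type I markers rose and 0 fell, and 4 of 7 type II markers rose and 0 fell (limma, adjusted p under 0.05). Of all genes 39.5% were called there, 19.7% higher and 19.8% lower. In Nrf2-/- against wild-type cells, 0 type I markers rose and 7 fell, and 1 type II marker rose and 1 fell of 7. Of all genes 32.4% were called there, 16.7% higher and 15.7% lower, and of the type II markers 28.6%. The airway secretory gene Scgb1a1 averaged 2490 ± 201 with GSH, 281 ± 6.29 in Nrf2-/- and 6725 ± 869 in wild-type cells (SD, n = 3). It was 8.84-fold higher with GSH than without it and 23.8-fold lower in Nrf2-/- than in wild-type cells, and of 2 measured airway markers 2 rose in the first comparison and 1 fell in the second. The other measured airway marker, Foxj1, was not called in the second (-0.78, limma adjusted p = 0.0701). Scgb1a1 made up most of the airway sum given below with GSH and in wild type. The summed signal of the 10 type I markers on the array was 13367 to 14960 with GSH, 8989 to 11111 in Nrf2-/- and 13889 to 14846 in wild-type cells. That of 10 type II markers was 6659 to 8073, 4960 to 5678 and 4813 to 5849, and that of 7 airway markers 2925 to 3017, 600.4 to 735 and 6693 to 8107, in the same order, with Trp63 below the control level on every GSH array, and Scgb3a2 and Cyp2f2 on every wild-type array. The part of these markers in the Wnt7a and Wnt7b values was not tested, and in bulk samples fewer cells of a type and less RNA per cell cannot be told apart.

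**Figure D1:**
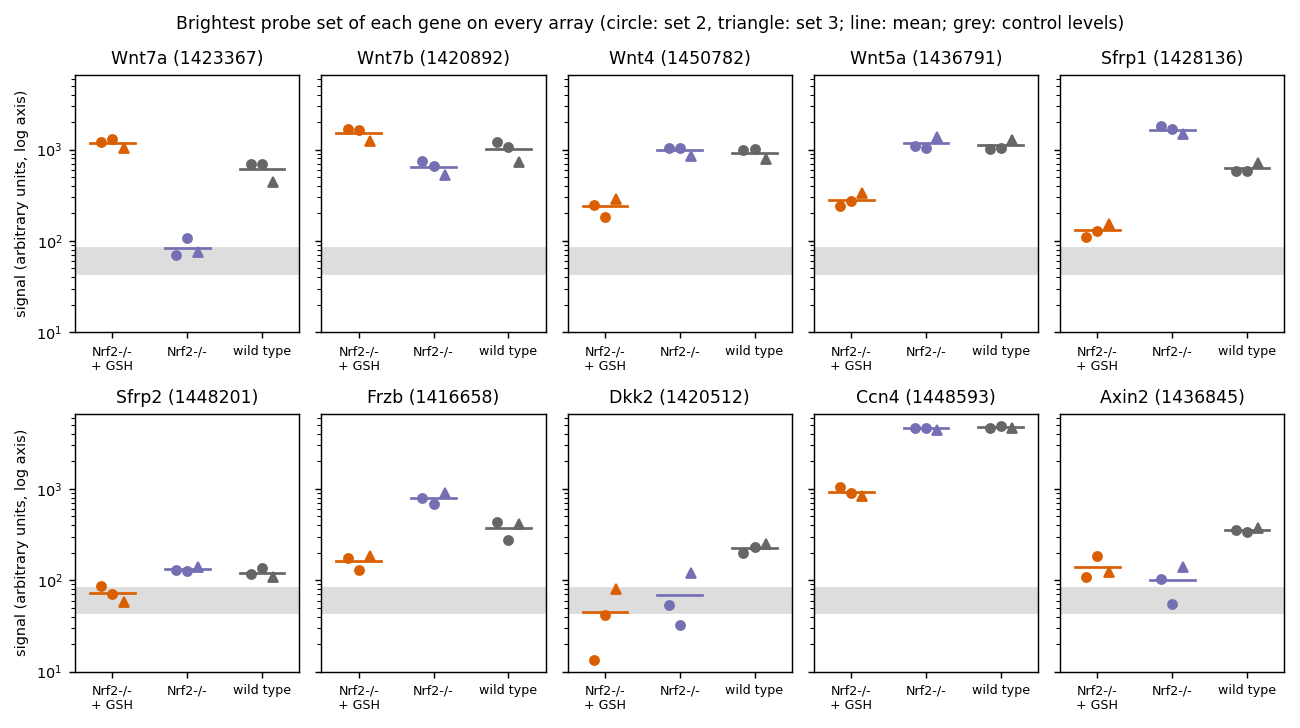
Signal (arbitrary units, log axis) of the brightest probe set of each of the 10 genes on every array, in Nrf2-/- cells with GSH, Nrf2-/- cells and wild-type cells from left to right; circles are arrays of set 2, triangles of set 3, lines are group means and the grey band spans the control levels of the arrays. Wnt7a and Wnt7b are lowest in Nrf2-/- cells, Wnt4, Wnt5a and Ccn4 are low with GSH, Sfrp1 and Frzb step down from Nrf2-/- to wild type to GSH, and Axin2 and Dkk2 are highest in wild type.

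Wnt4 and Wnt5a, ligands often tied to beta-catenin-independent signalling, had close means in Nrf2-/- and wild-type cells and were lower with GSH. Wnt4 by probe set 1450782_at read 249.3, 183.3 and 286.8 with GSH, 1054.4, 1043.5 and 841.5 in Nrf2-/- cells and 989.3, 1005.2 and 793.5 in wild-type cells. The GSH arrays lay below all others, and the other groups overlapped. GSH-supplemented cells were 4.13-fold below Nrf2-/- cells (-2.05 ± 0.17), at -2.29 in set 2 and -1.55 in set 3, and 3.92-fold below wild type (-1.97 ± 0.17). Between Nrf2-/- and wild-type cells the difference was 0.08 ± 0.17. Probe set 1441687_at gave means of 95.3 ± 19.7 with GSH, 374 ± 4.16 in Nrf2-/- and 443 ± 23.0 in wild-type cells, and here Nrf2-/- and wild type did not overlap (-0.24 ± 0.16).

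Wnt5a by probe set 1436791_at read 240.5, 275.2 and 332.7 with GSH, 1101.1, 1037.7 and 1369.3 in Nrf2-/- cells and 1020.3, 1045.3 and 1268.7 in wild-type cells. Again only the GSH arrays stood apart, 4.14-fold below Nrf2-/- (-2.05 ± 0.09) and 3.95-fold below wild-type cells (-1.98 ± 0.09). Set 2 gave -2.05 and set 3 gave -2.04 for GSH against no GSH. Of the other 3 probe sets, 1437673_at gave -2.28 ± 0.28 and 1448818_at -0.99 ± 0.14 for that comparison, both without overlap. The fourth, 1456976_at, is below the filter and averaged 114 ± 34.7, 132 ± 47.0 and 107 ± 15.9 with GSH, without GSH and in wild type, all overlapping. Nrf2-/- and wild-type cells overlapped in all 4 probe sets, with differences from -0.08 ± 0.14 to 0.25 ± 0.27.

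Sfrp1, a secreted frizzled-related protein, was highest in Nrf2-/- cells, lower in wild-type cells and lowest with GSH. Its probe set 1428136_at read 109.2, 128.7 and 153.7 with GSH, 1800.1, 1675.4 and 1473.3 in Nrf2-/- cells and 587.5, 585.6 and 714.6 in wild-type cells. The 3 groups did not overlap. With GSH the signal was 12.7-fold below Nrf2-/- (-3.67 ± 0.14) and 4.85-fold below wild-type cells (-2.28 ± 0.14). Nrf2-/- cells were 2.62-fold above wild type (1.39 ± 0.14), at 1.57 in set 2 and 1.04 in set 3. The gene has 5 probe sets, and all 5 had this order of means. For 1416594_at and 1460187_at every GSH array lay at or below its control level, so GSH was at least 11.05-fold and at least 14.1-fold below Nrf2-/- cells, with measured means of 29.4 ± 15.5 against 676 ± 132 and 42.0 ± 10.1 against 859 ± 119. These bounds set the Nrf2-/- mean against the mean control level of the GSH arrays. Probe set 1448395_at averaged 101 ± 34.0, 1669 ± 599 and 682 ± 387 in the order GSH, Nrf2-/- and wild type, with its highest Nrf2-/- and wild-type values, 2341.1 and 1124.9, both in set 3. Nrf2-/- and wild-type cells overlapped only for 1438620_x_at (0.59 ± 0.49), whose suffix marks probes that may bind other transcripts.

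Frzb, another frizzled-related antagonist (also called Sfrp3), followed the same order. By 1416658_at it read 177.4, 128.5 and 182.8 with GSH, 803.5, 680.7 and 893.5 in Nrf2-/- cells and 431.8, 276.5 and 417.9 in wild-type cells, without overlap. GSH-supplemented cells were 4.89-fold below Nrf2-/- (-2.29 ± 0.18) and 2.29-fold below wild-type cells (-1.19 ± 0.18), and Nrf2-/- cells were 2.14-fold above wild type (1.10 ± 0.18), with 1.10 in each set. Frzb lies on chromosome 2, as Nfe2l2 does. The part of DNA linked to the Nrf2-/- allele in its differences from wild type was not tested. Probe set 1448424_at gave -1.85 ± 0.30 for GSH against no GSH and 0.58 ± 0.30 for Nrf2-/- against wild type, also without overlap. Sfrp2 was dim, at 86.3, 70.6 and 58.5 with GSH, 128.5, 127.2 and 138.6 in Nrf2-/- and 117.9, 137.1 and 107.8 in wild-type cells. Here only the GSH arrays stood apart, 1.85-fold below Nrf2-/- cells (-0.89 ± 0.25).

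Dkk2, which binds Lrp6, differed from the frizzled-related genes in being highest in wild-type cells. It read 13.4, 41.8 and 80.7 with GSH, 53.1, 32.1 and 120.7 in Nrf2-/- cells and 199.1, 231.7 and 252.3 in wild-type cells. All 3 wild-type arrays, 2 of 3 Nrf2-/- arrays and 1 of 3 GSH arrays lay above their control level, and the brightest array of either Nrf2-/- group was that of set 3. Nrf2-/- cells were 3.84-fold below wild type (-1.94 ± 0.48), at -2.38 in set 2 and -1.06 in set 3, while the Nrf2-/- groups overlapped with each other.

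Ccn4, a matricellular protein first described as a Wnt1-induced gene (Wisp1), read 1047.6, 909.1 and 831.6 with GSH by 1448593_at, 4699.6, 4701.1 and 4435.1 in Nrf2-/- cells and 4689.9, 4943 and 4645.5 in wild-type cells. Nrf2-/- and wild-type cells overlapped (-0.05 ± 0.07), and the GSH arrays were 4.98-fold below Nrf2-/- (-2.32 ± 0.07) and 5.14-fold below wild-type cells (-2.36 ± 0.07). Its other probe set, 1448594_at, gave -2.37 ± 0.06 and -2.58 ± 0.06. Axin2, the feedback inhibitor that scaffolds beta-catenin destruction and a widely used readout of canonical signalling, read 108.3, 183.3 and 122.4 with GSH by 1436845_at, 103.8, 55.4 and 140.7 in Nrf2-/- cells and 357.6, 337.2 and 377.5 in wild-type cells. Wild-type arrays lay above all others, and 2 of 3 Nrf2-/- arrays exceeded their control level. Axin2 was 3.83-fold lower in Nrf2-/- (-1.94 ± 0.31) and 2.66-fold lower with GSH (-1.41 ± 0.31) than in wild-type cells. The Nrf2-/- groups overlapped, with GSH against no GSH at 0.53 ± 0.31, 0.89 in set 2 and -0.20 in set 3. Endothelial markers were also highest in wild type: the 10 summed to 2646 to 3028 with GSH, 2771 to 2860 in Nrf2-/- and 4289 to 4495 in wild-type cells, with Tie1 below the control level on every GSH array. Of 8 measured endothelial markers, 0 rose and 8 fell in GSH against wild type, where 48% of all genes were called. In Nrf2-/- against wild-type cells 0 rose and 3 fell, which is 37.5% called, near the 32.4% of all genes. Of the 6 mesothelial markers 1 rose and 5 fell in GSH against wild type, and 0 rose and 5 fell in Nrf2-/- against wild-type cells. The part of these markers in the Axin2 and Dkk2 values was not tested. The second probe set of Axin2, 1421341_at, was near or below the control level, above it on 0 of 3 GSH, 1 of 3 Nrf2-/- and 1 of 3 wild-type arrays.

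Between Nrf2-/- and wild-type cells, 6 of the 24 probe sets were higher and 5 lower without overlap. Of all probe sets analysed 12.8% were higher and 9.38% lower in that way, 22.1% in all. For GSH against no GSH in Nrf2-/- cells 3 of the 24 were higher and 15 lower, where 11.9% of all were higher and 11% lower, 22.9% in all. For GSH against wild type 2 of the 24 were higher and 17 lower, where 17.6% of all were higher and 13.2% lower, 30.8% in all. Since these comparisons chose the genes, nothing is read from these counts, and each pair of comparisons shares an arm.

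**Figure D2:**
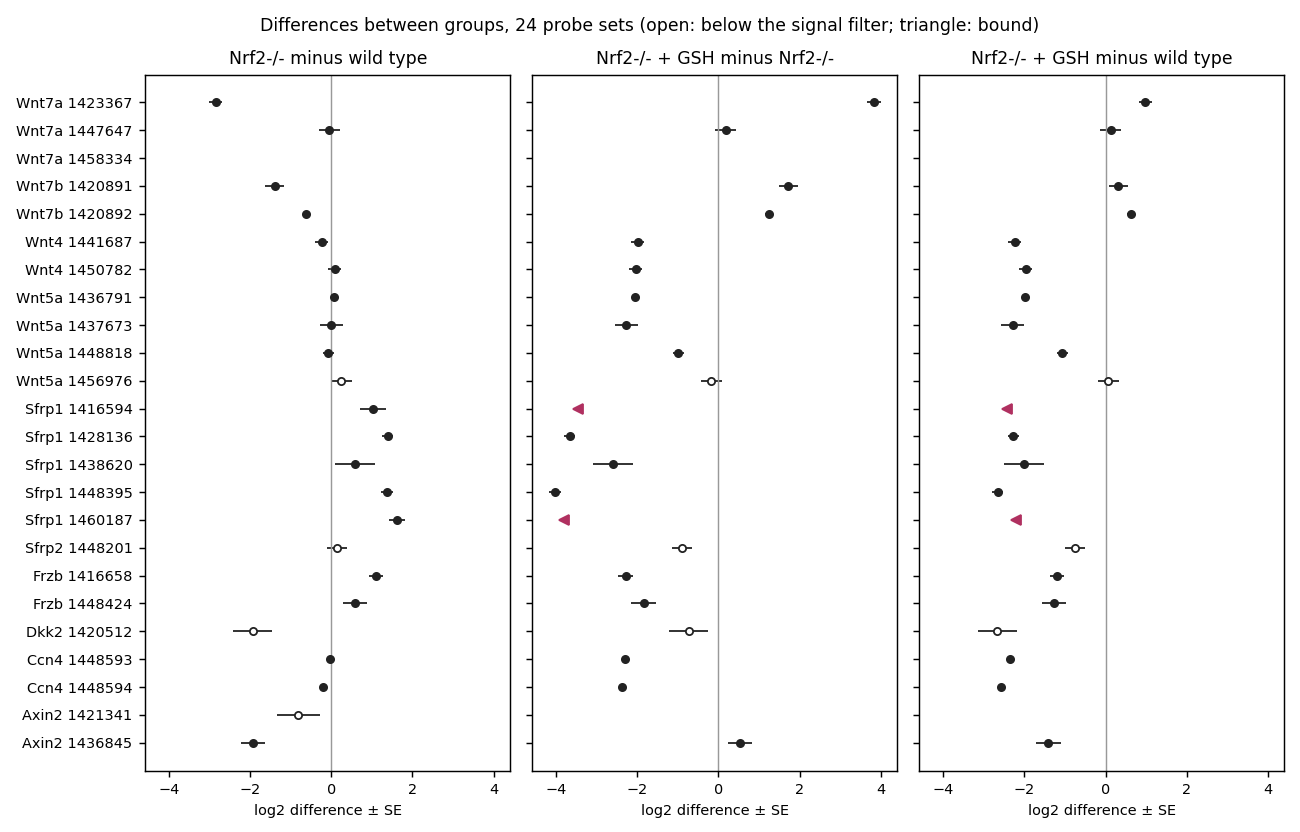
Log2 difference ± SE for the 24 probe sets in Nrf2-/- minus wild type, Nrf2-/- with GSH minus Nrf2-/-, and Nrf2-/- with GSH minus wild type; open circles are probe sets below the signal filter, triangles are bounds where a group lay at or below the control level on all its arrays, and Wnt7a 1458334 in every panel and Axin2 1421341 in the panels with GSH have no bound and are not drawn. The Sfrp1 probe sets lie between 0.59 and 1.62 in the first panel, and in the second its 3 probe sets with a measured difference lie between -4.04 and -2.60, and Wnt7a 1423367 runs the opposite way, at -2.86 and 3.84.

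Mesenchymal markers moved beside Wnt4, Wnt5a, Sfrp1, Frzb and Ccn4 with GSH against without it. In Nrf2-/- against wild-type cells they moved beside Sfrp1 and Frzb only. Of 17 fibroblast and mesenchymal markers on the array 16 were measured, and with GSH against without it 0 rose and 15 fell, where 39.5% of 11620 genes were called. Pdgfra, a receptor of lung fibroblasts, averaged 376 ± 12.1 with GSH and 6616 ± 1710 without it, and Col3a1 averaged 1174 ± 84.8 and 13537 ± 1426. Vim did not pass the test (-0.08). In Nrf2-/- against wild-type cells 10 of the 16 rose and 2 fell, where 32.4% of genes were called. In that comparison the groups overlapped for the brightest probe sets of Wnt4 (0.08), Wnt5a (0.07) and Ccn4 (-0.05). Wnt4 by 1441687_at was lower (-0.24). The summed signal of the 17 markers was 63148 to 71244 with GSH, 123811 to 163444 in Nrf2-/- and 103426 to 111857 in wild-type cells, and Mfap4 lay below the control level on every array. Of 6 mesothelial markers, 1 rose and 5 fell with GSH against without it, and 0 rose and 5 fell in Nrf2-/- against wild-type cells, with Wt1 at 299 ± 72.1, 1428 ± 202 and 1762 ± 178 and Upk3b at 52.6 ± 11.8, 342 ± 51.0 and 1775 ± 152 in the order GSH, Nrf2-/- and wild type. The 6 summed to 7522 to 8339 with GSH, 4295 to 4538 in Nrf2-/- and 13152 to 14574 in wild-type cells, most of it Msln with GSH (7052 ± 473), and Gpm6a lay below the control level on every GSH array. Of 14 macrophage markers, which summed to 87072 to 98685, 62644 to 70384 and 35281 to 36371 in that order, 8 rose and 2 fell with GSH against without it. In Nrf2-/- against wild-type cells 12 rose and 2 fell. The part of these markers in the Wnt genes' values was not tested.

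**Figure D3:**
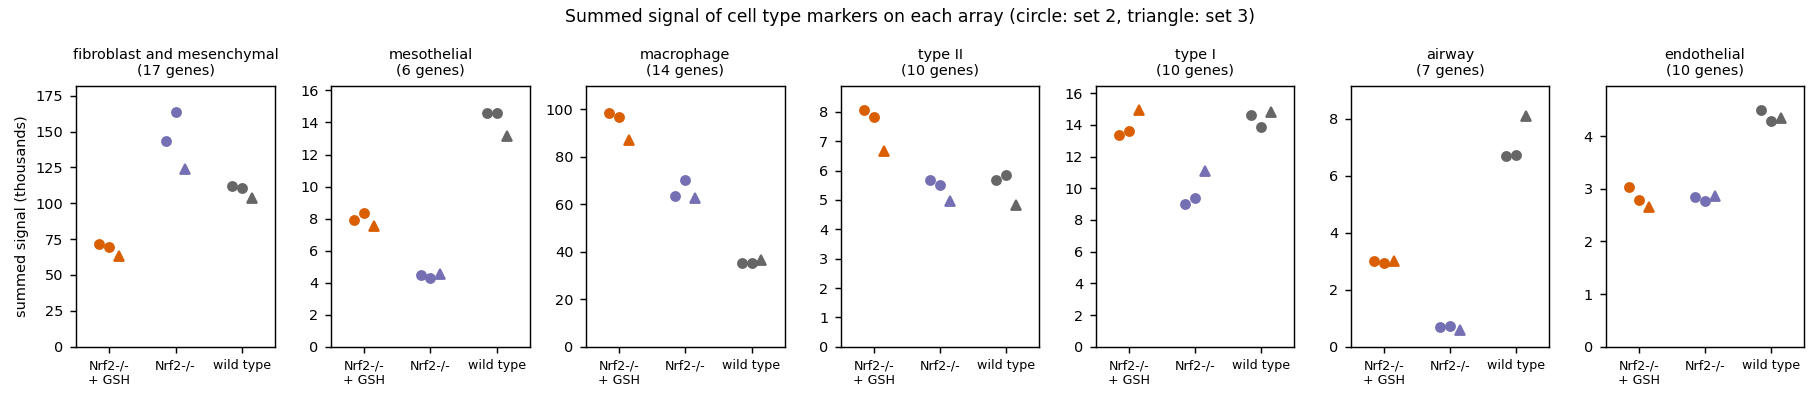
Summed signal (kilo-units of arbitrary signal, axes from 0) of the fibroblast and mesenchymal, mesothelial, macrophage, type II, type I, airway and endothelial markers on each array; circles are arrays of set 2 and triangles of set 3. Fibroblast and mesenchymal markers sum to 63148 to 71244 with GSH, below the 123811 to 163444 of Nrf2-/- and the 103426 to 111857 of wild-type cells, and macrophage markers sum highest with GSH.

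Other genes of the pathway were tested across all probe sets: 99 listed genes in 9 groups, 97 on the array and 61 measured after the filter. At a limma adjusted p under 0.05, 29.1%, 35.4% and 44.7% of the probe sets past the filter were called in Nrf2-/- against wild-type cells, GSH against no GSH and GSH against wild type. In Nrf2-/- against wild-type cells 6 pathway genes rose and 14 fell, and 32.8% of the 61 were called, close to the 32.4% of all genes (16.7% higher and 15.7% lower). Their median log2 difference was -0.05, and that of all genes 0.01. Of 15 other Wnt ligands 5 were measured, and all 5 passed the test. Wnt9a fell to 137 ± 35.6 in Nrf2-/- cells against 787 ± 48.1 in wild-type cells (5.87-fold, log2 difference -2.55, limma adjusted p = 1.36e-07). Wnt10a, Wnt11 and Wnt2, the last a mesenchymal ligand of lung development, fell by 1.19, 1.04 and 0.88 on the log2 scale. Wnt6 rose (0.68). Wls, which carries Wnts to the cell surface, was at 2997 ± 135 in Nrf2-/- and 4240 ± 213 in wild-type cells (-0.50, limma adjusted p = 0.000241).

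In the same comparison genes acting outside the cell and at its surface went both ways. Rspo3, an R-spondin that strengthens Wnt signalling, rose to 2422 ± 671 in Nrf2-/- cells against 907 ± 167 in wild-type cells (1.40, limma adjusted p = 7.16e-06), and the Dickkopf-related Dkk3 rose to 841 ± 54.2 against 329 ± 18.8 (1.35, limma adjusted p = 0.00041). Among 15 measured receptors and co-receptors 2 rose and 3 fell, with Fzd6 at 656 ± 126 in Nrf2-/- and 1422 ± 265 in wild-type cells (-1.12) and Fzd5 also lower (-0.80). Of 6 feedback and target genes only the cell cycle gene Ccnd1 passed, at -0.31. The kinase gene Csnk1e (-0.39), the corepressor gene Tle1 (-0.42) and the polarity gene Celsr1 (-0.71) fell in their groups, of 14, 8 and 6 measured. The rises of Btrc (0.61), Lrp6 (0.38) and Fzd1 (0.28) lost their calls when some arrays were left out. Btrc was not called without Nrf2-/- replicate 2 or wild-type replicate 3 or 5 (limma adjusted p = 0.0643 to 0.101). Lrp6 lost its call without Nrf2-/- replicate 2 or 4 or wild-type replicate 3 or 4 (limma adjusted p = 0.0863 to 0.138), Fzd1 without Nrf2-/- or wild-type replicate 4 (0.0623 to 0.0649), and Celsr1 without wild-type replicate 3 (0.0672).

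With GSH against without it in Nrf2-/- cells, 15 of the 61 genes rose and 23 fell. That is 62.3% called, against 39.5% of all genes (19.7% higher and 19.8% lower), with a median of -0.17 against 0.01. Each array centred on its median gave 6 higher and 24 lower. Of the other ligands 4 rose and 0 fell, among them Wnt9a, at 576 ± 114 with GSH and 137 ± 35.6 without it (2.08, limma adjusted p = 3.4e-07), and Wnt10a (1.73). Receptors split: Fzd5 rose to 806 ± 92.3 against 289 ± 46.9 (1.49, limma adjusted p = 9.78e-07) and Fzd6 rose (0.55), while 8 of the 15 fell, among them Fzd2 (-1.25), Ror2, a receptor for Wnt5a (-1.34), and Ryk (-1.11). Rspo3 was 14.3-fold lower, at 173 ± 64.3 with GSH and 2422 ± 671 without it (-3.84, limma adjusted p = 1.14e-09). Dkk3 was 9.79-fold lower, at 90.9 ± 36.6 and 841 ± 54.2 (-3.29, limma adjusted p = 2.08e-07).

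Inside the cell 2 of 6 measured feedback and target genes rose and 3 fell. Those that fell included Ccn5, a relative of Ccn4 (-1.76), and Dact1, a regulator of Dishevelled (-1.61). The polarity gene Prickle1 fell (-1.05) and Celsr1 rose (0.88). Of 14 measured cytoplasmic transducers 3 rose and 3 fell: Ctnnb1, which encodes beta-catenin (0.32), Csnk1e (0.33) and Ctnnbip1 (0.33) rose, and Csnk1a1, of the destruction complex (-0.38), Tnks (-0.50) and Amer1 (-0.77) fell. Of 8 nuclear effectors 2 rose, Tcf7l2 (0.41) and Pygo2 (0.38), and 3 fell, Tcf7l1 (-1.22), Bcl9 (-0.53) and Tle3 (-0.48). Those outside the naming rule among these (Ctnnb1, Csnk1e, Ctnnbip1, Tnks, Amer1, Tcf7l2, Pygo2, Tcf7l1 and Tle3) were chosen after their values were seen. Lgr6, an R-spondin receptor, was called at 0.50 (limma adjusted p = 0.0497). Its call was lost without GSH replicate 2, 3 or 4, Nrf2-/- replicate 2 or 4 or wild-type replicate 3 or 5 (limma adjusted p = 0.0597 to 0.182), and with the shared replicate numbers as a block (0.0802).

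Against wild-type cells, Nrf2-/- cells with GSH had 7 of the 61 genes higher and 32 lower, which is 63.9% called against 48% of all genes (23.5% higher and 24.5% lower), with a median of -0.41 against 0.0014. Rspo3 (-2.44) and Dkk3 (-1.94) were lower, as were Ryk, at 860 ± 17.8 with GSH and 2743 ± 101 in wild type (-1.67, limma adjusted p = 1.55e-08), Tcf7l1 (-1.80), Dact1 (-1.57), Ror2 (-1.50), Prickle1 (-1.35), Wnt11 (-0.76), Wls (-0.56) and Tnks (-0.53). Wnt6, at 576 ± 24.1 with GSH and 278 ± 41.5 in wild type (1.06, limma adjusted p = 2.71e-05), Fzd5 (0.69), Celsr2 (0.69), the TCF factor gene Tcf7l2 (0.58) and Ctnnbip1 (0.33) were higher. The groups overlapped for Ctnnbip1, whose call was lost with each array centred on its median (limma adjusted p = 0.191), with the replicate block (0.626) and without the set term (0.26). The call of Fzd5 was lost with the replicate block (0.0538) and that of Celsr2 in set 2 alone (0.0766). Wnt10a was called at 0.54, a call that was lost without GSH replicate 2 or 4 or wild-type replicate 3, 4 or 5 (limma adjusted p = 0.0593 to 0.223).

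**Figure D4:**
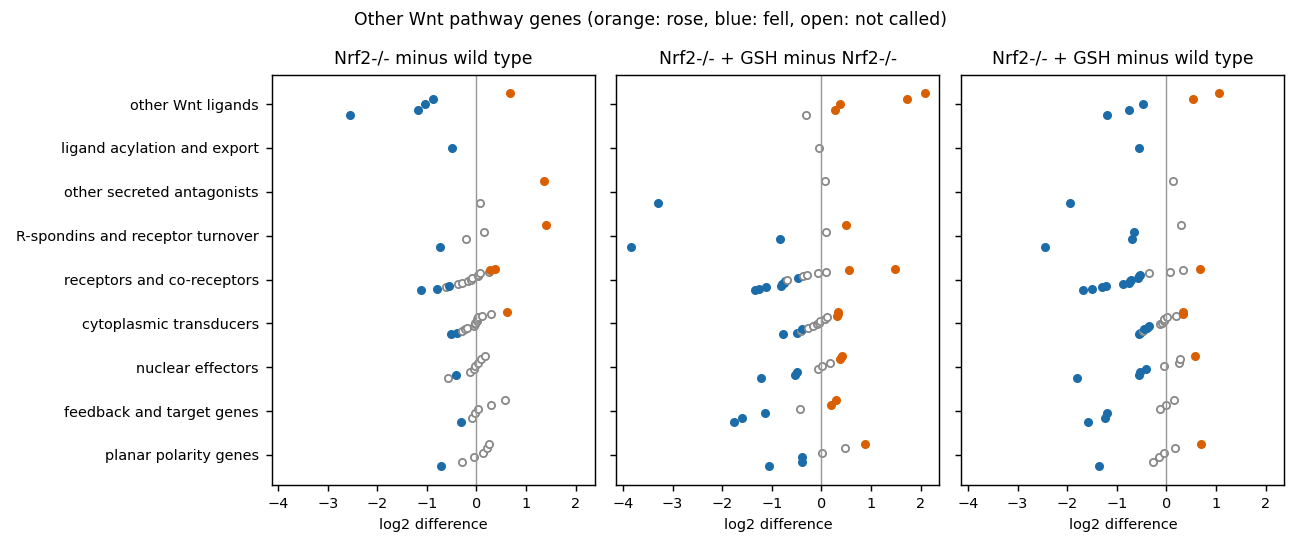
Log2 difference of the 61 measured other Wnt pathway genes by group, for Nrf2-/- minus wild type, Nrf2-/- with GSH minus Nrf2-/-, and Nrf2-/- with GSH minus wild type; orange points rose and blue points fell at a limma adjusted p under 0.05, and open points were not called. With GSH against without it, Rspo3 (-3.84) and Dkk3 (-3.29) lie farthest to the left and Wnt9a (2.08) farthest to the right.

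For each of the 8 genes with a probe set past the filter, the gene whose signal pattern was most like that of its brightest probe set was found by Pearson correlation of log2 signal over the 9 arrays, which share 3 groups and 2 sets, among 20080 probe sets. Wnt7a was most like Mapk13, a p38 kinase gene (r = 0.995), and Wnt7b was most like Muc1, an epithelial mucin (0.987). Wnt4 came closest to the basement membrane collagen gene Col4a1 (0.995) and Wnt5a to Slit2, a secreted guidance protein (0.998). Sfrp1 came closest to Serping1, the complement C1 inhibitor (0.996), and Frzb to Rnf150 (0.988). For Ccn4 it was Calu, a calcium-binding protein of the secretory pathway (0.998), and for Axin2 it was Spata13 (0.980).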

How the data were processed

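Expression was measured on 9 Affymetrix mouse arrays, 3 for each of 3 groups set by the sample titles and source names. The authors deposited 1 intensity per probe set and array on a linear scale. The 2% trimmed mean was 500 on each array, which shows prior scaling; the summarising software was not given in the sources used here. Of 45101 probe sets 64 controls were left out, 2 values at 0 were set to 0.1, log2 was taken without further normalisation, and the 22519 probe sets at or above the median of mean log2 were fitted. Gene symbols were read from the platform annotation held by GEO (34945 probe sets with 1 symbol, 932 with several, 9160 with none), and 34741 matched RefSeq gene identifiers (GRCm38.p6), by which 0 changed.

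The fit used limma 3.58.1 in R 4.3.3 with terms for group and set and an intensity trend, and a Benjamini-Hochberg adjusted p under 0.05 over all fitted probe sets made a call. It had 5 residual and 6.08 prior degrees of freedom, and its code was tested on simulated data. A gene was represented by its probe set with the highest mean. Named genes were every probe set of the 10 genes, per comparison the 6 largest called rises and falls over the pathway lists and the smallest p of each list, and the most correlated gene for each of the 8 genes with a probe set past the filter. The genes and lists were chosen with earlier results of these data known. A fold given as at least a value sets the brighter group's mean log2 against the mean log2 control level of the dimmer group's arrays. The titles number the arrays of both Nrf2-/- groups 2, 3 and 4. Same-numbered arrays deviated together from their group means (r = 0.32 and 0.29 in set 2 and 0.67 in set 3). In set 2, arrays with different numbers did so to a like degree (0.24 and 0.39). Set 3 holds 1 array of each group, so number and set are not separated there. The fit has the set and no replicate block; the block was an alternative. Alternatives changed the set term, scaling, filter, pseudocount, trend, arrays fitted and call rule. The number of arrays limits the precision.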

Additional observations from a re-analysis of the deposited data

How the results depend on the processing

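For the 72 differences of the 10 genes' probe sets, 1186 of 1224 recomputed values moved by less than the spread between arrays, 38 moved by more, and 0 changed direction where the groups had not overlapped. Of 961 recomputed values of the other named pathway genes 0 changed direction and 61 lost their call, in 14 of 49 named differences. Without the set term Ccnd1, Tle1, Btrc, Lrp6, Fzd1, Fzd6, Wnt10a, Lgr6 and Ctnnbip1 lost a call. With the replicate block Wnt6 (limma adjusted p = 0.0629), Csnk1e (0.0592), Ccnd1 (0.12), Tle1 (0.154), Btrc (0.119) and Lrp6 (0.0517) lost theirs in Nrf2-/- against wild-type cells. Wnt10a did so in GSH against wild type (0.372). Lrp6, Lgr6 and Wnt10a also lost a call with median centring, without the filter, without the trend and in set 2 alone. Fzd1 lost its call with median centring and in set 2 alone, and Celsr1 in set 2 alone. Probe sets called in Nrf2-/- against wild-type cells numbered 6560, against 2774 without the set term, 3253 with a replicate block and 2481 by the fold rule that the series' design states, and leaving out 1 array gave 4500 to 6825. For GSH against no GSH they numbered 7964, against 4574 without the set term and 3593 by the fold rule (6659 to 7847 leaving out 1 array). For GSH against wild type they numbered 10074, against 6181 without the set term, 6586 with a replicate block and 4766 by the fold rule (8184 to 10452). Pathway genes called numbered 20 in Nrf2-/- against wild-type cells, 14 without the set term, 13 with a replicate block and 11 by the fold rule (17 to 22 leaving out 1 array). For GSH against no GSH they numbered 38, 27 without the set term, 30 with median centring and 19 by the fold rule (32 to 37). For GSH against wild type they numbered 39, 30 without the set term, 26 with a replicate block and 19 by the fold rule (34 to 40). The cause of these changes was not tested, except that the fold rule sets a minimum size. Among the named genes for GSH against no GSH, the replicate block ended 1 call, that of Lgr6, and it left 29 of the 38 pathway calls in number. Wild-type arrays share only numbers 3 and 4 with the others, and the number-4 pairs correlated at -0.49 and -0.45. Wild-type replicate 4 is of set 2 and the other arrays numbered 4 are of set 3. Arrays of different sets and numbers were negative too, as wild-type replicate 3 with Nrf2-/- replicate 4 (-0.60). These values therefore cannot show whether arrays of 1 number share more than the number. Centring each array on its median moved the median difference of all probe sets past the filter by -0.15 for GSH against wild type. It moved by -0.09 for Nrf2-/- against wild type and by -0.06 for GSH against no GSH. The share of probe set calls that were higher was then 35.1% in place of 49.97%, 42.8% in place of 52.0% and 32.7% in place of 50.2% for Nrf2-/- against wild type, GSH against no GSH and GSH against wild type. Of 216 values of the 24 probe sets 188 lay above the control level, and 179 above the highest control.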
